A study of Oryza sativa with 6 samples.

Results

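GSTU1 (LOC4334347), GSTU6 (LOC4349207) and GSTZ5 (LOC4332455) are 3 rice genes for glutathione S-transferases that had been picked out because their signal was higher after auxin. The gene table on which the names rest covers 17905 genes on the array, and every probe set that it assigns to these 3 genes was taken, 4 of 57194 target probe sets. GSTU1 and GSTZ5 have 1 probe set each and GSTU6 has 2. The other genes with a symbol or synonym of the form GSTU, GSTF or GSTZ and a number were GSTF1 (LOC4325710), GSTF2 (LOC4326887) and GSTZ3 (LOC4329692). They brought 4 more probe sets and served as the named background. They include no GSTU gene, and GST genes without such a name in the table were not covered, so they do not stand for the whole family. The choice rested on the comparison of IAA with control in these same arrays, so the differences of the 3 genes in that comparison are given as a description, without a test.

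Seedlings of the indica rice variety IR64 were grown at 28 °C with 14 h of light and 10 h of dark and used at 7 days of age. IAA seedlings were treated with 50 µM indole-3-acetic acid, the natural auxin, BAP seedlings with 50 µM benzyl aminopurine, a synthetic cytokinin, and control seedlings with 0.1% dimethyl sulfoxide, a solvent. In all groups, equal amounts from 1 h and 3 h of treatment were combined ahead of RNA extraction, so the 2 times are not separated. Each group had 2 samples, called biological replicates in the series design, and each sample was read on 1 Affymetrix rice array.

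Glutathione S-transferases join the tripeptide glutathione to reactive or foreign molecules, which are then commonly moved into the vacuole. The tau class (GSTU) and the phi class (GSTF) are typical of plants and are known for the breakdown of herbicides, whereas zeta enzymes (GSTZ) act as isomerases in the breakdown of tyrosine in other organisms, Arabidopsis among them. Tau genes that respond to auxin are known from soybean, tobacco and Arabidopsis.

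The median deposited intensity of the arrays ranged from 16.6 to 23.1, and arrays were brought to a common distribution before any comparison. Replicate arrays correlated at r = 0.983 with IAA, 0.983 with BAP and 0.988 in the control, computed across tested probe sets, which are no independent replicates. IAA and control arrays were run on the same day, in fluidics modules 3 and 4 for IAA and 1 and 2 for control, and the BAP arrays on a different day in modules 3 and 4. Against the control, IAA therefore cannot be told apart from module, nor BAP from module and run day. Between BAP and IAA, which shared modules, hormone and run day cannot be told apart. Tissue genes were measured by 11 probe sets of 7 genes, of which 2 probe sets, 1 of RBCS and that of RBCS1, were too dim to test. The brighter CAB2R probe set, for a light-harvesting protein, averaged 8213, 8546 and 8530 in IAA, BAP and control seedlings, and Lsi1, a silicon channel of roots, 2593, 1889 and 3526. The root regulators SHR1 and SCR1 were dim, with group means of 80.6, 50.3 and 64.3 for SHR1 and 58.3, 82.1 and 71.3 for SCR1 in the same order. With BAP, Lsi1 fell by 0.89 on the log2 scale (limma adjusted p = 0.00837) and Lsi2, a silicon exporter of roots, fell by 1.67 (adjusted p = 0.0126). SHR1 and SCR1 differed by -0.29 and 0.17 with BAP and did not pass (limma adjusted p = 0.902 and 0.935). With IAA, Lsi1 and Lsi2 were also lower on both arrays, by -0.44 and -0.68, without passing (limma adjusted p = 0.0957 and 0.216). The tested probe sets of RBCS, a leaf gene, did not read alike with IAA. They differed by 0.12, 0.16 and -0.54, the last lower on both arrays. With IAA, 0 of the 9 tested probe sets of tissue genes passed and with BAP 2, against 0.851% and 0.274% of all tested. Both IAA arrays lay below both control arrays in 22.9% of all tested probe sets. The part of such shifts in the GST values was not tested. In RNA of seedlings, fewer cells of a type and less RNA per cell cannot be told apart.

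GSTU1, of the tau class, had normalized intensities of 1233 and 1431 in IAA seedlings, 299 and 356 in BAP seedlings, and 219 and 336 in control seedlings. Both IAA arrays lay far above the other 4, while the BAP and control arrays overlapped. The group means were 1332 ± 140 with IAA, 328 ± 40.4 with BAP and 278 ± 83.0 in the control (SD, n = 2 arrays each). On the log2 scale the IAA mean exceeded the control mean by 2.22 (SE 0.19), a 4.67-fold difference, and the 4 differences between single IAA and control arrays ran from 1.83 to 2.62. The deposited values before rescaling were 1089.8 and 1558.1 with IAA, 295.4 and 372.6 with BAP, and 242.8 and 320.2 in the control, with the same separation. The control arrays stood apart from each other by 0.58 on the log2 scale, a wider gap than in 93.9% of tested probe sets, and the GSTU1 difference was 1.94 without control array 1 and 2.52 without control array 2. The probe set carries the maker's mark s, used where probes are shared by several transcripts, so a close relative could contribute to its signal.

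GSTU6, also of the tau class, read 3575 and 3329 with IAA, 989 and 1347 with BAP, and 971 and 1171 in the control at its brighter probe set. Again the IAA arrays stood clear and the BAP and control arrays overlapped. The means were 3452 ± 173 with IAA, 1168 ± 253 with BAP and 1071 ± 142 in the control (SD, n = 2 each), and the IAA mean was 3.20-fold that of the control, a log2 difference of 1.68 (SE 0.15). Single IAA and control arrays differed by 1.49 to 1.86 on the log2 scale, a narrower spread than for GSTU1. The second probe set of GSTU6 gave almost no signal: it read 3.38 and 4.23 with IAA, 6.32 and 10.8 with BAP, and 7.85 and 2.60 in the control. It fell under the filter on dim probe sets and was not tested, so the higher GSTU6 signal rested on 1 of its 2 probe sets.

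GSTZ5, of the zeta class, read 1568 and 1944 with IAA, 925 and 965 with BAP, and 1101 and 913 in the control. The IAA arrays were the highest of the 6, with a smaller step than for the tau genes, and both BAP arrays lay between the control arrays. The means were 1756 ± 266 with IAA, 945 ± 28.3 with BAP and 1007 ± 133 in the control (SD, n = 2 each). The IAA mean was 1.73-fold the control mean, a log2 difference of 0.79 (SE 0.14), and single arrays differed by 0.50 to 1.08.

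**Figure D1:**
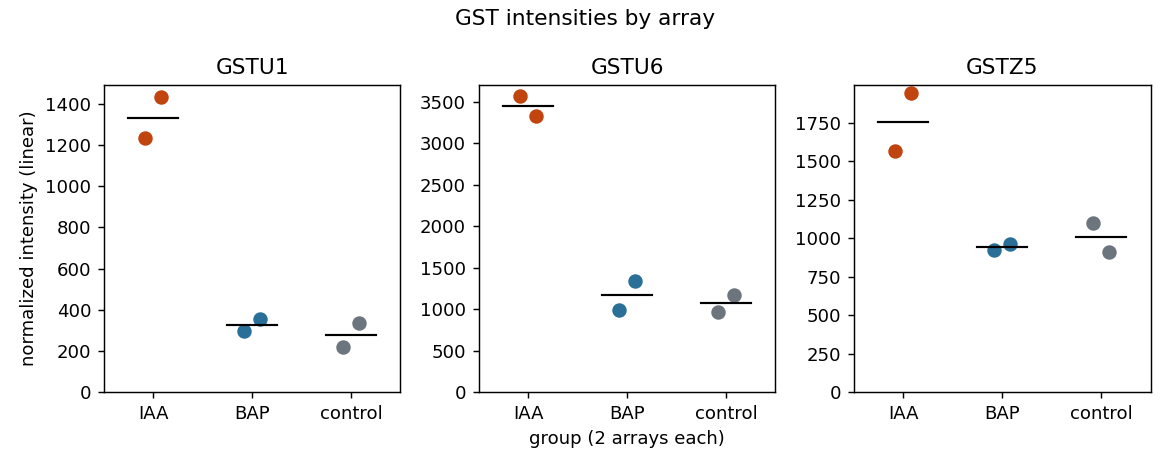
Normalized intensity (vertical axis, linear, from 0) of the brightest probe set of GSTU1, GSTU6 and GSTZ5 in IAA, BAP and control seedlings, with 1 point per array and a bar at the mean of the 2 arrays. In each panel both IAA points lie above the other 4, and the BAP and control points overlap.

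Over the 34316 tested probe sets, 217 passed the threshold upwards with IAA, or 0.632%, and 75 downwards, or 0.219%. The 3 tested probe sets of GSTU1, GSTU6 and GSTZ5 were among the 217, and 0.851% of all passed in either direction; the genes had been chosen on this. Their IAA arrays lay above both control arrays, as in 21.1% of all tested probe sets, and 44% had no overlap in either direction. Ranked from the largest increase with IAA downwards, GSTU1 was 26th, GSTU6 65th and GSTZ5 464th. GSTZ5 was the gene just inside the threshold that chose the 3, with an adjusted p of 0.0350 in limma, and the nearest named family member outside it was GSTZ3 at 0.624. That value of GSTZ5 went over the threshold in 11 of 14 other settings. Among these were dim probe sets kept (limma adjusted p = 0.169) and no intensity trend (0.206). Others were arrays centred on their medians (0.0837), no rescaling (0.0522) and only IAA and control arrays (0.0573). Every setting reused the arrays that chose the 3 genes, so none of these adjusted p values is a test of the choice.

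**Figure D2:**
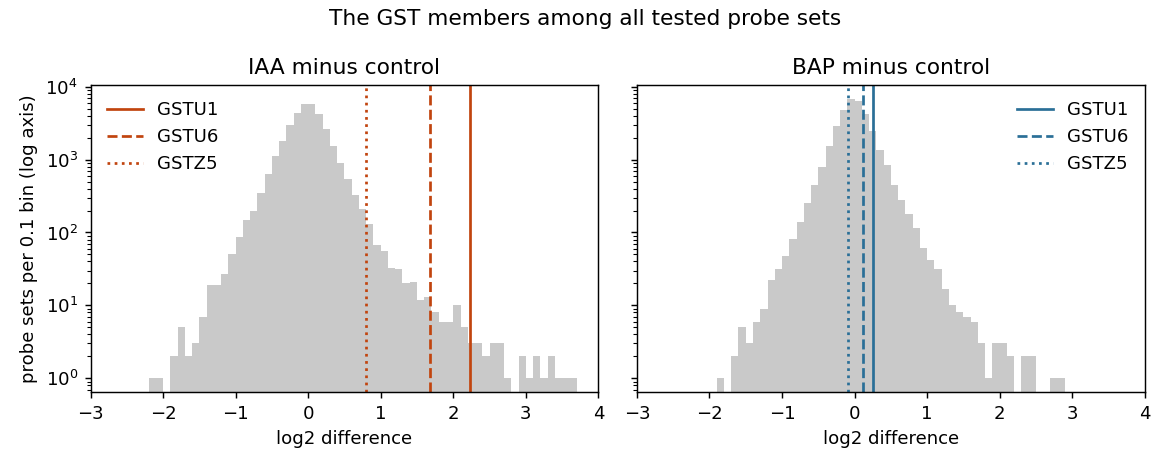
Number of tested probe sets (vertical axis, log scale) per bin of the log2 difference against control (horizontal axis), for IAA on the left and BAP on the right, with vertical lines at GSTU1, GSTU6 and GSTZ5. With IAA the lines stand at 2.22, 1.68 and 0.79 in the right tail, and with BAP at 0.25, 0.11 and -0.08 near the centre.

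The comparison of BAP with the control was not the one that chose the genes and was tested, although it shares the control arrays with IAA. BAP arrays also entered the normalization and the spread estimate behind the IAA adjusted p values. The BAP test is therefore not fully separate from the choice. None of the 3 genes passed in limma: 0 were called upwards and 0 downwards, against 0.21% and 0.0641% of all tested probe sets and 0.274% in either direction. At an unadjusted p under 0.05 the count was also 0 of 3, against 7.57% of all tested probe sets. All 3 had overlapping BAP and control arrays, where 37.6% of tested probe sets had none, 17.8% with BAP higher and 19.9% with BAP lower. GSTU1 differed by 0.25 on the log2 scale (SE 0.19, 95% interval -0.18 to 0.69, limma adjusted p = 0.893). GSTU6 differed by 0.11 (SE 0.15, interval -0.23 to 0.46, limma adjusted p = 0.946) and GSTZ5 by -0.08 (SE 0.14, interval -0.39 to 0.22, limma adjusted p = 0.955). Differences of either sign within these intervals are compatible with the data. Without control array 1 the sign of the BAP difference turned for all 3 genes, to -0.04 for GSTU1, -0.02 for GSTU6 and 0.05 for GSTZ5, and that of GSTU6 also turned without BAP array 2, to -0.11.

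Set directly against each other, BAP seedlings had less signal than IAA seedlings by -1.97 for GSTU1 (SE 0.19), -1.57 for GSTU6 (SE 0.15) and -0.87 for GSTZ5 (SE 0.14) on the log2 scale. All BAP arrays were below all IAA arrays for the 3 genes. The IAA arrays took part in choosing the genes, so these differences are descriptive too.

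The phi genes GSTF1 and GSTF2 and the zeta gene GSTZ3 were the other named members of the family. GSTF1 read 487 and 410.3 with IAA, 499 and 363 with BAP, and 467 and 452 in the control, with the 3 groups overlapping. GSTF2 read 5864 and 5643 with IAA, 5506 and 5596 with BAP, and 5285 and 5660.4 in the control, and its mean level was above that of 99.8% of target probe sets. Its IAA and control arrays overlapped too.

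GSTZ3 had 2 tested probe sets that did not read alike. The brighter one read 277 and 285 with IAA, 249 and 245 with BAP, and 241.4 and 241.1 in the control, so that both IAA arrays stood above both control arrays by a small step of 0.19 to 0.23 on the log2 scale. The dimmer one read 27.6 and 44.8 with IAA, 57.5 and 23.9 with BAP, and 46.4 and 41.3 in the control, with no order among the groups. Of the 4 probe sets of these 3 genes, limma called 0 with IAA and 0 with BAP, against 0.851% and 0.274% of all tested. At an unadjusted p under 0.05 the counts were also 0 and 0, against 10.8% and 7.57% of all. The median log2 difference was 0.02 with IAA and -0.04 with BAP, against -0.01 and -0.01 over all tested probe sets. The IAA differences were -0.04 for GSTF1 (95% interval -0.41 to 0.33), 0.07 for GSTF2 (-0.10 to 0.25), and 0.21 (-0.08 to 0.49) and -0.22 (-0.90 to 0.46) for the brighter and the dimmer GSTZ3 probe set. Earlier results of these genes were known as well, so the contrast between them and GSTU1, GSTU6 and GSTZ5 is given as values only.

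**Figure D3:**
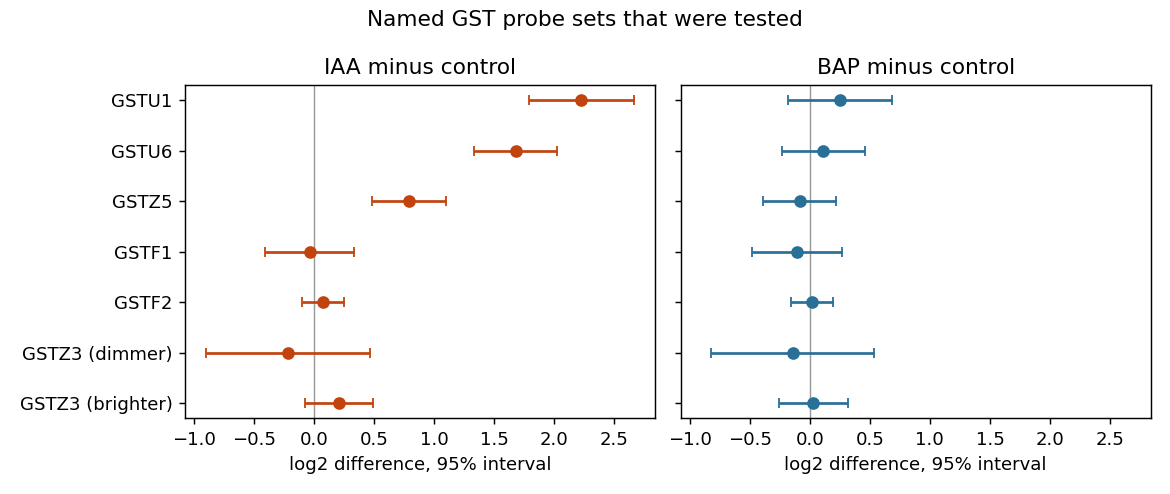
Log2 difference against control (horizontal axis) of the 7 tested probe sets of named GST genes, with 95% intervals from limma, for IAA on the left and BAP on the right. GSTU1, GSTU6 and GSTZ5, chosen on the IAA comparison, lie to the right of 0 with IAA, and the intervals of all 7 probe sets include 0 with BAP.

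Genes that stand around GSTU1, GSTU6 and GSTZ5 in the genome were examined next, because tau genes of plants often lie in tandem groups of copies. The order of genes came from a japonica assembly and served only to name neighbours. GSTU1 and GSTZ5 lie on chromosome 3 and GSTU6 on chromosome 10. Among the 5 genes on either side of each, 16 had tested probe sets, 6 around GSTU1, 5 around GSTU6 and 5 around GSTZ5. With IAA, 2 of the 16 genes rose and 0 fell in limma (0.632% and 0.219% of all tested probe sets), and both stood beside GSTU6. Of their 20 tested probe sets, 4 had an unadjusted p under 0.05 with IAA and 7 with BAP, against 10.8% and 7.57% of all tested probe sets.

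LOC4349204, which stands 2 genes before GSTU6, read 147 and 142 with IAA, 55.8 and 53.1 with BAP, and 46.9 and 44.8 in the control. Replicates were close and the IAA arrays were far above the rest, with a rise of 1.38 on the log2 scale (SE 0.16, limma adjusted p = 0.0057). LOC4349212, 5 genes after GSTU6, read 155 and 113 with IAA, 61.8 and 76.1 with BAP, and 42.0 and 45.7 in the control, and rose by 1.31 (SE 0.20, limma adjusted p = 0.0190). The table used for names gives no name or product for either gene. With BAP they changed by 0.19 (SE 0.16, limma adjusted p = 0.907) and 0.50 (SE 0.20, adjusted p = 0.576). Both calls were lost without control array 1 (adjusted p = 0.0574 and 0.149) and without IAA array 1 (adjusted p = 0.0636 and 0.140), and that of LOC4349212 also without control array 2 (adjusted p = 0.0905) and without an intensity trend (0.0790). With dim probe sets kept, neither passed (adjusted p = 0.0543 and 0.137).

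The other tested neighbours of GSTU6 were not alike. LOC4349202 and LOC4349203, 4 and 3 genes before GSTU6, had overlapping groups, with IAA differences of 0.24 (SE 0.20) and 0.28 (SE 0.36). LOC4349210, 2 genes after GSTU6, read 115 and 101 with IAA, 215 and 196 with BAP, and 126 and 95.3 in the control at its brighter probe set. There the BAP arrays, not the IAA arrays, were the highest, by 0.82 (SE 0.17) over the control, which did not pass in limma (adjusted p = 0.130).

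Once these values were seen, the window was widened to 20 genes on either side. It then held 23 tested genes around GSTU6, of which 3 rose with IAA and 0 fell (0.632% and 0.219% of all tested probe sets). Around GSTU1 the counts were 0 and 0 of 23, and around GSTZ5 0 and 0 of 24. The third gene that rose was LOC4349190, 14 genes before GSTU6, also without a name here. Its brighter probe set read 3041 and 3446 with IAA, 475 and 831 with BAP, and 284 and 571 in the control. Its other probe set read 974 and 1106 with IAA, 671 and 735 with BAP, and 371 and 509 in the control. Both probe sets were highest on the IAA arrays, with rises of 2.95 (SE 0.31, limma adjusted p = 0.00322) and 1.23 (SE 0.16, adjusted p = 0.00836), so the sizes differed while the direction was shared. The second of these calls was lost without control array 1 (adjusted p = 0.0673) and without either IAA array (0.0559 and 0.0661). With dim probe sets kept, neither probe set passed (0.0543 and 0.0682), nor without an intensity trend (0.0534 and 0.0937). LOC4349193, 11 genes before GSTU6, had a log2 difference of 1.30 that did not pass (SE 0.33, limma adjusted p = 0.160), with control arrays at 81.2 and 189.5. The median IAA difference over the 25 tested probe sets around GSTU6 was 0.24, against -0.02 around GSTU1, 0.07 around GSTZ5 and -0.01 over all tested probe sets.

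With BAP, 1 of the 16 nearest genes rose in limma and 0 fell, against 0.21% and 0.0641% of all tested probe sets. With 20 genes on either side, the counts were 1 and 0 of 70 tested genes. The nearest gene that rose was GLO1 (LOC4334349), 2 genes after GSTU1, which encodes a glycolate oxidase of photorespiration. Its probe set read 1075.5 and 1040.1 with IAA, 1169.7 and 1682 with BAP, and 672 and 676 in the control, a rise of 1.04 with BAP (SE 0.16, limma adjusted p = 0.0392). A second GLO1 probe set read 534 and 539.8 with IAA, 487 and 501 with BAP, and 557 and 563 in the control, with a BAP difference of -0.18 (SE 0.11, limma adjusted p = 0.839). The call of the first was lost in 10 of 14 other settings, among them without control array 1 (adjusted p = 0.215), control array 2 (0.225), either IAA array (0.0765 and 0.0763) or BAP array 2 (0.105), and with dim probe sets kept (0.241).

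**Figure D4:**
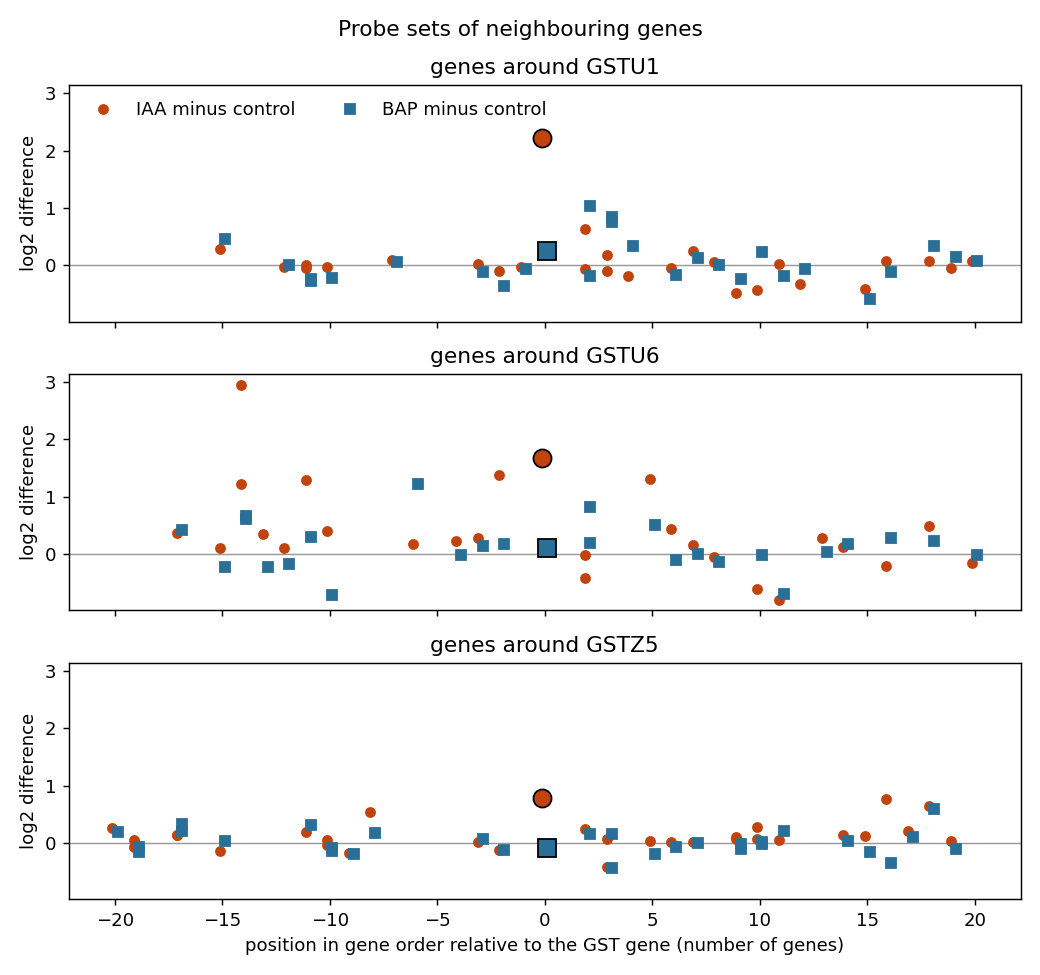
Log2 difference against control (vertical axis) of the tested probe sets of up to 20 genes on either side of GSTU1, GSTU6 and GSTZ5 (horizontal axis, position in gene order), with circles for IAA, squares for BAP and large outlined symbols for the GST genes themselves. Around GSTU6, the circles of LOC4349190, LOC4349193, LOC4349204 and LOC4349212 stand above 1, of which that of LOC4349193 did not pass, and around GSTU1 and GSTZ5 no neighbour has a circle above 1.

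Other steps of glutathione metabolism could be followed in few genes, since the table gave a matching symbol or synonym to 4 genes, of which 3 had probe sets. In limma 0 of their 5 probe sets were called with IAA and 0 with BAP, against 0.851% and 0.274% of all tested probe sets. At an unadjusted p under 0.05 the counts were 1 and 0 of 5, against 10.8% and 7.57% of all. The first step of glutathione synthesis is catalysed by glutamate-cysteine ligase, encoded by gcs (LOC4337696, also GSH1-1). Its first probe set read 785 and 697 with IAA, 562 and 658 with BAP, and 574 and 508 in the control, a difference of 0.44 with IAA (SE 0.13, limma adjusted p = 0.231). The 2 other probe sets of gcs were also higher on both IAA arrays than on both control arrays, by 0.21 (SE 0.14) and 0.24 (SE 0.11), and did not pass either (limma adjusted p = 0.661 and 0.473). For comparison, 21.1% of all tested probe sets had both IAA arrays above both control arrays and 22.9% had both below.

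GLYI-11 (LOC4344858), a glyoxalase that detoxifies methylglyoxal with the help of glutathione, averaged 5171 ± 69.6 with IAA, 5035 ± 615 with BAP and 4886 ± 167 in the control (SD, n = 2 each). Its IAA difference was 0.08 (SE 0.10). ABCC13 (LOC4331585), a transporter of the family that carries glutathione conjugates and known in rice for its part in phytate storage, averaged 1003 ± 28.2 with IAA, 1068 ± 37.6 with BAP and 1165 ± 85.4 in the control. It was lower on all IAA and all BAP arrays, by -0.21 (SE 0.11) and -0.12 (SE 0.11), and passed in neither comparison (limma adjusted p = 0.527 and 0.907).

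The named genes whose values over the 6 arrays were closest to those of each GST gene were sought next, by the root mean square difference of log2 values taken relative to the control mean. Among the 103 tested probe sets whose gene has a symbol in the strict sense, ACS1, an ethylene synthesis gene, came first for GSTU1 (0.678) and GSTU6 (0.639), followed for both by PP2C68 and then by FEN1A and CPK13 in differing order, and CPK13, a calcium-dependent protein kinase gene, was closest to GSTZ5 (0.243), followed by FEN1A, PP2C68 and IRX9L. Since the GST genes themselves carry their names as synonyms, the search was repeated over 2916 tested probe sets named by symbol or synonym, a widening made after the first values were seen. A close match is a description of 6 arrays in 3 groups, and the IAA arrays weigh most in it.

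GSTU1 was then closest to OPR-1 (LOC4340485, also OPR5, 0.189) and OPR10 (LOC4340486, also OPR4, 0.288), of the 12-oxophytodienoate reductase family, to the cytochrome P450 gene CYP87A3 (0.352) and to GH3-8 (0.363), which encodes an enzyme that joins amino acids to auxin. OPR-1 read 3070.3 and 3659 with IAA, 1063 and 1085 with BAP, and 748 and 1005.3 in the control. GSTU6 was closest to DAO (LOC4336150, 0.0844), which encodes the dioxygenase that oxidises auxin to an inactive form, then to IAA1 (0.144), CYP87A3 (0.181) and NAC067 (0.202, also NAC3). DAO read 4043 and 3366 with IAA, 1129 and 1360.0 with BAP, and 1119 and 1239 in the control. The higher IAA level and the overlap of BAP with the control were shared by GSTU6 and DAO.

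GSTZ5 was closest to CLA1 (LOC4338768, also DXPS, 0.118), for the deoxyxylulose phosphate synthase of plastid isoprenoid synthesis, then to MCS (0.136), OsWNK5 (0.154) and FBPase (0.158). CLA1 read 952 and 1012 with IAA, 580 and 618 with BAP, and 609 and 595 in the control. In this widened search none of the 4 genes was among those closest to GSTU1 or GSTU6, whereas in the first search CPK13, FEN1A and PP2C68 were among the 4 closest to all 3 GST genes.

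**Figure D5:**
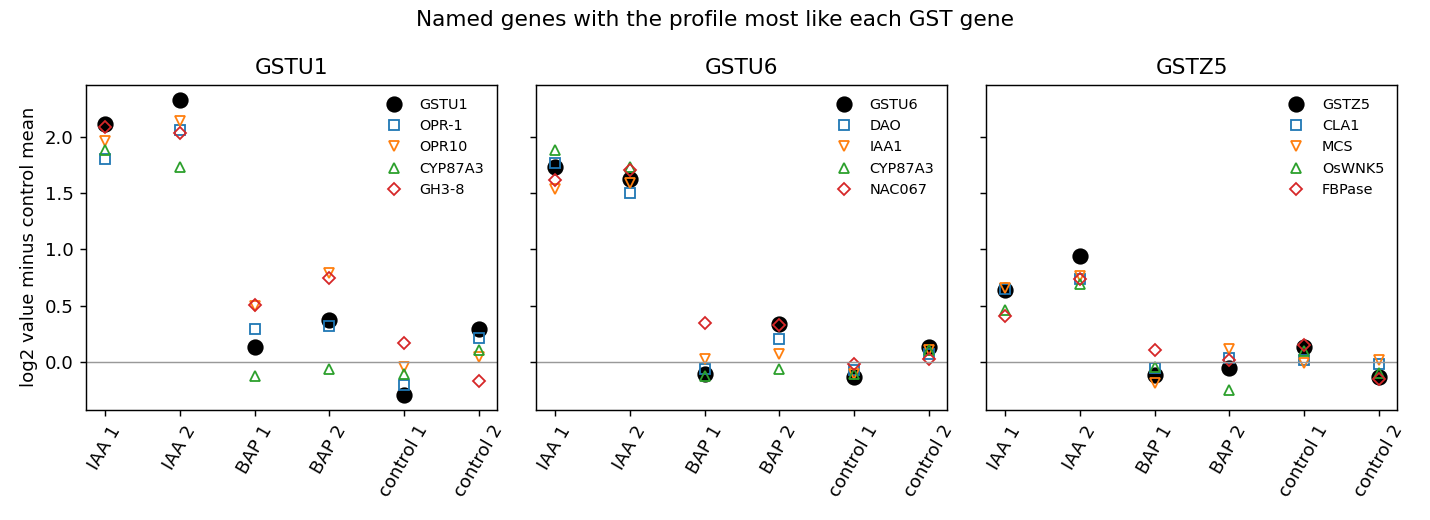
Log2 value minus the control mean (vertical axis) on each of the 6 arrays (horizontal axis) for GSTU1, GSTU6 and GSTZ5 (filled circles) and for the 4 named genes closest to each (open symbols). The open symbols follow the IAA step of about the same height as each GST gene and lie near 0 on the control arrays.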

How the data were processed

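RNA of 6 rice seedling samples was hybridised to Affymetrix arrays with a biotin label, per the labels. The deposited table holds 1 linear intensity per probe set and array; the authors' background and summary method is not given in the sources used here. Groups and replicate numbers came from the sample titles, and run day and module from the file headers. Leaving out 187 array controls of 57381 probe sets, log2(intensity + 16) was quantile normalized, because array medians differed by up to 0.262, and probe sets with a mean under the 40th percentile (4.70) were dropped, which left 34316. Printed intensities are normalized values less 16. The log2 differences were taken with the 16 added and understate changes of dim genes. limma 3.58.1 (R 4.3.3) estimated the 3 group means with an intensity trend (3 residual degrees of freedom), and Benjamini-Hochberg adjustment covered all tested probe sets (threshold 0.05, two-sided). The fit was tested on simulated data. Tables and plots were made with Python 3.11.15, pandas 2.3.3 and matplotlib 3.10.9. A platform annotation of probe sets (22436 with 1 gene, 95 with several, 34663 with none here) was joined by gene number to RefSeq names of a japonica assembly. Probes of similar copies can share signal.

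The members and lists were chosen with earlier results of these data known. Named were all GSTU, GSTF and GSTZ genes, called or nearest neighbours, the glutathione genes and the 4 closest profiles of each GST gene. Comparisons of protein homologues, promoters and proteins were planned and are not reported, since no sequences were used here.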

Additional observations from a re-analysis of the deposited data

How the results depend on the processing

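With 2 arrays a group, precision is limited throughout. The log2 difference of IAA and control ran from 1.94 to 2.52 for GSTU1, 1.55 to 1.81 for GSTU6 and 0.64 to 0.94 for GSTZ5 with each array left out, and kept its sign in all 14 settings tried for each gene (other pseudocounts, filter, scaling, spread, arrays and the replicate block). The limma adjusted p of GSTZ5 with IAA went over the threshold in 11 of the 14. With each array left out, the BAP difference ran from -0.04 to 0.54 for GSTU1, -0.11 to 0.33 for GSTU6 and -0.22 to 0.05 for GSTZ5. It turned negative for GSTU1 without control array 1 (-0.041) and for GSTU6 without control array 1 (-0.02) or BAP array 2, turned positive for GSTZ5 without control array 1 (0.049), and passed in none of the 14. Settings for neighbouring genes were chosen after seeing the data. Their count of probe sets called with IAA, 2, ran from 0 to 3 with each array left out, and was 0 with dim probe sets kept (more probe sets tested), 1 without an intensity trend and 4 with 20 neighbours a side. The count with BAP, 1, was 0 with a pseudocount of 1, with dim probe sets kept, with arrays centred on their medians, without a trend and with only BAP and control arrays, and ran from 0 to 1 with each array left out. The other causes were not tested. The glutathione genes had 0 calls in every setting. All probe sets called with IAA numbered 292, against 68 with dim probe sets kept, 92 without a trend and 502 without rescaling, where the median difference of all was -0.08; for BAP they were 94, against 14, 13 and 210, and 60 with arrays centred on their medians. With each array left out they ran from 85 to 287 for IAA and from 13 to 92 for BAP, lowest without control array 1 and BAP array 2. The counts over sequence homologues were not run. Replicate numbers are not stated to pair samples, and deviations of same-numbered arrays correlated between -0.06 and 0.03. With the replicate block, 320 probe sets were called with IAA and 95 with BAP, and the GSTU1 difference with IAA was 2.22 (SE 0.14).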
